A study of Arabidopsis thaliana with 8 samples.

Results

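The response of wild-type Arabidopsis thaliana leaves to the hormone abscisic acid (ABA) was measured by setting 2 arrays of ABA-sprayed plants against 2 arrays of water-sprayed plants, 4 of the 8 arrays in the series. The members were taken from the sample titles, which name the Columbia (Col-0) line, the presence or absence of ABA and a replicate number. All plants were 4 weeks old, and the ABA group received 50 µM ABA in water, the mock group water alone, each for 4 h before green tissue was frozen. The other 4 arrays carry RNA of abh1, a mutant in the large subunit of the complex that binds the capped end of nuclear transcripts, under the same mock and ABA sprays. They enter here only to estimate the spread between arrays and as a second set in which the same genes were read. RNA of 3 biological replicates was pooled for each array, so differences between plants within a pool are not seen. The p-values below come from fits with the replicate number as a block, unless the block is said to be left out. The block removes the difference between replicates that the groups share. The p-values thus rest only on how unequal that difference is from group to group, a spread that may be technical. The Col-0 plants carried no transgene or mutation named in the labels. Since whole green tissue was extracted, fewer cells of a type and less RNA per cell cannot be told apart.

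ABA is the hormone that plants make when water runs short. It is bound by soluble receptors that then block a group of protein phosphatases, which frees SnRK2 kinases to activate bZIP transcription factors, and these switch on genes for protective proteins. In leaves the hormone is known for closing stomata, for inducing late embryogenesis abundant (LEA) proteins and dehydrins, which protect membranes and proteins during drying, and for slowing growth. Expansins, which loosen cell walls during growth, and SWEET sugar transporters are other groups named in the results below.

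Each value is a MAS5 signal, the Affymetrix summary of one probe set, which is a group of probes for one transcript. A change is the difference of log2(signal + 10), ABA minus mock, so that a change of 1 is 2-fold on that scale, and changes of dim genes are understated. Of 22746 probe sets, 13648 passed the filter on low signal, which was a mean of at least 115 over the 8 arrays, and 7405 of these had 1 named gene, 7328 genes in all. Median signals on the wild-type arrays were 155 and 131 for mock and ABA in replicate 1 and 205 and 206 in replicate 2. The 3′ to 5′ signal ratio of the GAPDH control, a measure of RNA length, was 1.04 and 1.17 on the mock arrays and 1.73 and 1.57 on the ABA arrays. The groups do not overlap in that ratio. The same ratio of the actin control was 6.99 and 2.16 on the mock arrays and 2.93 and 2.97 on the ABA arrays, and that of ubiquitin was 2.05 and 2.49 in mock and 2.05 and 2.57 with ABA. The groups overlap in both of these, and mock replicate 1 stands apart in actin. The part of RNA quality in the changes below was not tested. Correlated over log2 signals, the wild-type ABA arrays had an r of 0.859 with each other, and each was closer to the mock array of its own number, at 0.914 in replicate 1 and 0.958 in replicate 2. Rubisco activase (RCA), a photosynthetic leaf gene, had signals of 18089 and 18085 on the mock arrays and 13882 and 19472 on the ABA arrays, so this defining leaf gene was bright on all 4. EXPA7, a root hair gene, was below the filter, and no marker of phloem, flowers or seeds on the marker lists was measured under 1 gene name.

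The response was not of one size. In replicate 1, 530 probe sets were at least 2-fold higher with ABA (3.88%) and 1421 were at least 2-fold lower (10.4%). In replicate 2, 380 were at least 2-fold higher (2.78%) and 95 at least 2-fold lower (0.696%). The standard deviation of the change over all probe sets was 0.74 in replicate 1 and 0.43 in replicate 2. The middle of the distribution also differed, with a median change of −0.15 in replicate 1 and −0.02 in replicate 2. Replicate 1 thus held the broader response, above all in its lower signals. Split into 3 equal groups by mean signal, the dimmest, middle and brightest probe sets gave 550, 525 and 346 of the lower ones in replicate 1, and 41, 27 and 27 of those in replicate 2. Across probe sets, which are not independent, the changes in the replicates correlated at a Pearson r of 0.25 and a Spearman rho of 0.13.

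The excess of lower signals in replicate 1 moved with the scaling. Centring each array on its median shifted the changes of replicate 1 by 0.23 and those of replicate 2 by −0.0073. Replicate 1 then had 929 probe sets at least 2-fold higher and 817 at least 2-fold lower, so the larger direction turned over. With quantile normalization the split was 569 higher and 853 lower. Replicate 2 kept more higher than lower signals under both scalings, with 374 and 99 after centring and 441 and 125 after quantile normalization. The counts and shares of lower probe sets in replicate 1 given below are on the scaling of the deposited signals unless median centring is named.

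**Figure D1:**
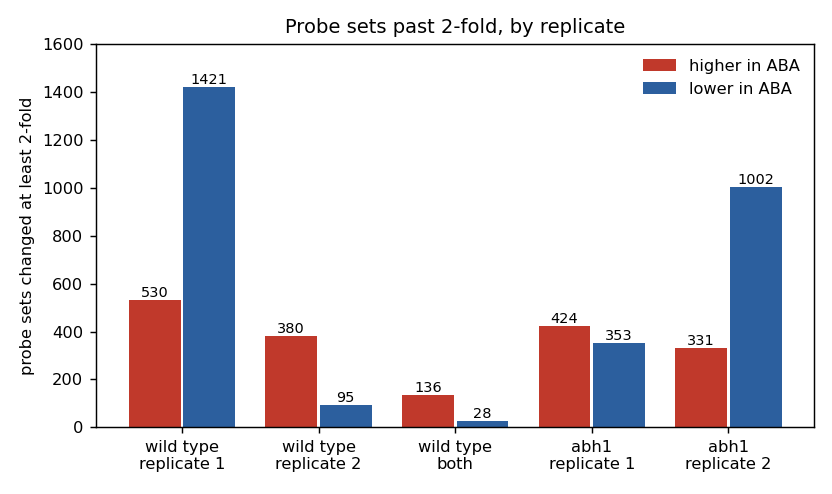
Number of probe sets changed at least 2-fold between ABA and mock (y axis, count), in red higher and in blue lower, for each replicate of wild type, for both wild-type replicates together and for each abh1 replicate. Wild-type replicate 1 has 1421 lower probe sets against 95 in replicate 2, while 136 higher and 28 lower are shared.

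The replicates shared 136 probe sets that were at least 2-fold higher with ABA in both, 0.996% of those tested, and 28 that were at least 2-fold lower in both, 0.205%. A further 30 passed 2-fold in opposite directions, 27 of them lower in replicate 1 and higher in replicate 2. Of the probe sets 2-fold higher in replicate 1, 84.0% were also higher in replicate 2, with a median change there of 0.52. Of those 2-fold lower in replicate 1, 52.4% were lower in replicate 2, with a median change there of −0.02. From the side of replicate 2, 67.9% of the probe sets 2-fold higher there were higher in replicate 1. Of those 2-fold lower in replicate 2, 77.9% were lower in replicate 1. The backgrounds of these shares differ: of all 13648 probe sets, 5570 were higher and 8078 lower in replicate 1. In replicate 2, 6478 were higher and 7170 lower, so the 52.4% above was near the share of all probe sets. Both ABA arrays lay above both mock arrays for 125 of the 136 shared higher probe sets, against a background of 10.4% of all probe sets. Both lay below for 24 of the 28 shared lower ones, against a background of 13.3%. The choice of members sets these directions, so the counts are a description. Probe sets under the filter threshold on every mock array, abh1 included, passed only through their ABA arrays, so the filter set their direction. The same holds the other way for probe sets under the threshold on every ABA array. Both kinds are in these counts, and their number was not counted. The change was larger in replicate 1 for 101 of the 136, whose median changes were 2.02 and 1.44, and for 19 of the 28, whose medians were −1.59 and −1.24.

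**Figure D2:**
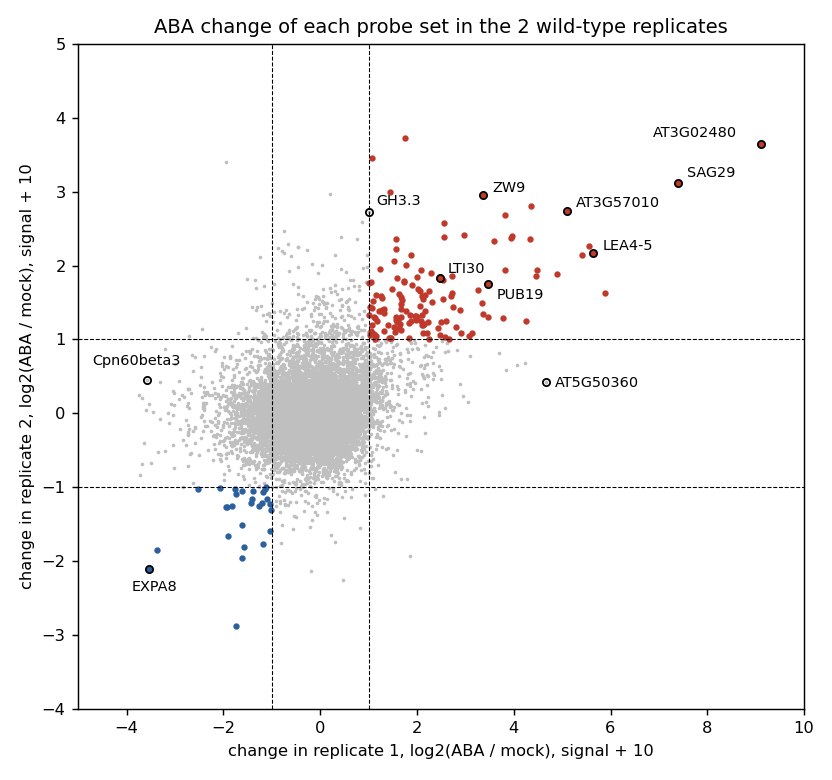
Change of each of 13648 probe sets, log2 of ABA over mock with 10 added to each signal, in replicate 1 (x axis) and replicate 2 (y axis). Red and blue points pass 2-fold (dashed lines) in both replicates, 136 higher and 28 lower, and the cloud is wider along the axis of replicate 1.

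In the limma fit to all 8 arrays, with the replicate number as a block and Benjamini-Hochberg adjustment over 13648 probe sets, 1 probe set passed an adjusted p of 0.05, or 0.00733%. It is that of ZW9 (AT1G58270), which rose. Its signal was 857 and 616 on the mock arrays and 8955 and 4838 on the ABA arrays. Both ABA arrays lay far above both mock arrays, by 10.4-fold in replicate 1 and 7.85-fold in replicate 2. The change was 3.16 with a standard error (SE) of 0.24 and a limma adjusted p of 0.0157. No function is given for ZW9 in the annotation used. The next smallest limma adjusted p was 0.0577, and 94 probe sets lay under 0.1. At an unadjusted p of 0.05, 1599 probe sets passed, 770 higher and 829 lower, where 682 would be expected by chance. Fitted on the 4 wild-type arrays alone, which leaves 1 residual degree of freedom and rests on the spread that limma borrows across probe sets, 159 probe sets passed, or 1.17%, of which 141 were higher and 18 lower. Of these 159, 121 were also past 2-fold in both replicates. The fitted count moved with single arrays. Without the replicate block 0 probe sets passed and 574 had an unadjusted p under 0.05, and leaving out ABA replicate 2 gave 2128 against 5 without ABA replicate 1, the lone wild-type ABA array then being taken to vary like the other groups. An exact permutation test of 2 arrays against 2 cannot go below 0.333, so none is given for single genes, and for the genes below other than ZW9 the values are given without a call.

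Genes of protective proteins were among the higher ones. LTI30, a dehydrin also known as XERO2, had signals of 1111 and 750 on the mock arrays and 6239 and 2685 on the ABA arrays. Its change was 2.48 in replicate 1 and 1.83 in replicate 2, with a limma adjusted p of 0.0649. AT3G02480 (no symbol in the annotation), entered as a LEA-family gene in the effector list, was dim in mock leaves, at 4.32 and 30.6, and reached 7927 and 498 with ABA. The ABA arrays of both genes stood above both mock arrays, and for AT3G02480 the mock value of replicate 1 lay under the 10th percentile of its array, so no fold is given for it. LEA4-5, a LEA protein of group 4, read 28.3 and 37.0 in mock and 1902 and 201 with ABA, changes of 5.64 and 2.17 (limma adjusted p = 0.0875). Among the effector genes measured, the replicates thus differed most for the LEA genes that were dim in mock leaves.

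The cold-regulated genes were already bright without ABA. COR15A, which makes a chloroplast protein that protects membranes during freezing, read 10602 and 5648 in mock and 23965 and 13408 with ABA. Its changes were 1.18 and 1.25, nearly equal in the replicates (limma adjusted p = 0.132). COR47, a second dehydrin, read 5526 and 4881 in mock and 11322 and 8209 with ABA, and its changes of 1.03 and 0.75 fell short of 2-fold in replicate 2. COR15A and COR15B are outside the rule for named genes and are given to complete the list. COR15B, the neighbour and close relative of COR15A, read 5690 and 4314 in mock and 10670 and 4793 with ABA. Its mock and ABA arrays overlap, and its change was 0.91 in replicate 1 and 0.15 in replicate 2. COR15A and COR15B are similar in sequence, and how far their probe sets share signal was not tested.

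All 6 effector genes that passed the filter were higher with ABA in both replicates, 4 of them at least 2-fold in both and 5 without overlap, and 0 were called. Over all probe sets these shares were 0.996% and 10.4%. AT3G02480 and LEA4-5 were under the filter threshold on every mock array and passed only through their ABA arrays. Their direction was thus set by the filter, and they add to these counts and medians. LTI30, COR15A, COR47 and COR15B were above the threshold on all arrays. The median change of the 6 genes was 1.83 in replicate 1 and 1.54 in replicate 2, where all 7328 genes had medians of −0.11 and −0.04. Of all genes, 21.2% were higher in both replicates, 32.5% lower in both, and 46.4% went opposite ways. The list had 26 entries, of which 8 were on the array under 1 gene name. The other 2 of the 8, AtLEA4-1 and LEA18, fell below the filter. AtLEA4-1 read 13.6 and 12.6 in mock and 56.9 and 90.9 with ABA, and LEA18 read 0.691 and 1.37 in mock and 142 and 3.78 with ABA. The genes named as ABA receptors, clade A phosphatases, SnRK2 kinases and their transcription factors, ABA synthesis enzymes and osmolyte enzymes on the lists are not analysed here, since none matched a probe set with 1 gene name.

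**Figure D3:**
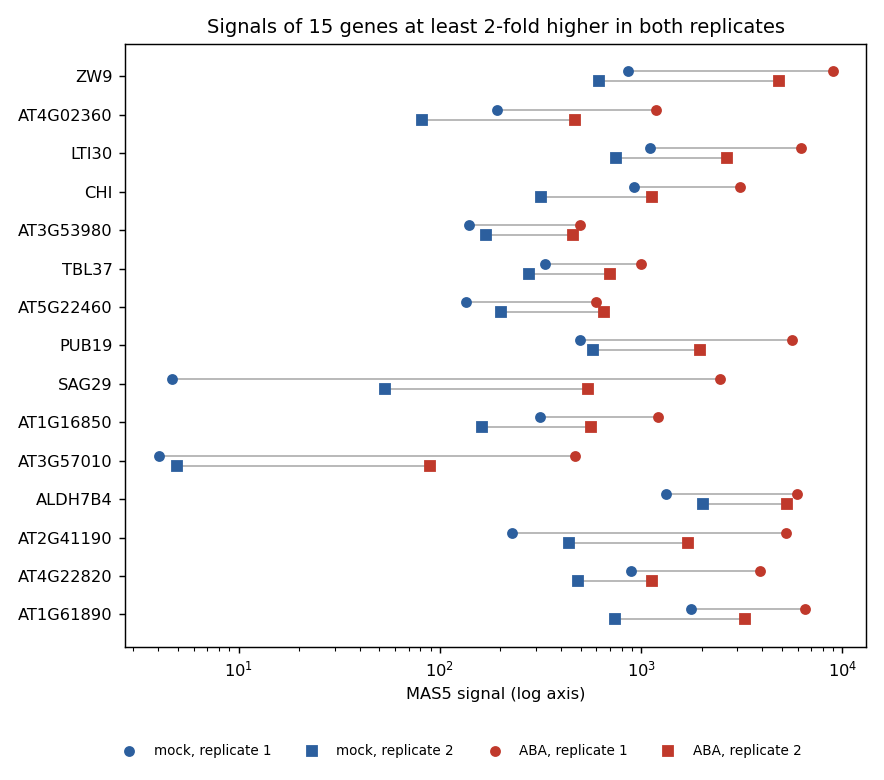
MAS5 signal (log x axis) of the 15 genes with the smallest limma p among those at least 2-fold higher with ABA in both wild-type replicates, with mock in blue, ABA in red, circles for replicate 1 and squares for replicate 2. For each of the 15 both ABA arrays lie to the right of both mock arrays.

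After ZW9 and LTI30, the 15 genes with the smallest p among those 2-fold higher in both replicates held enzymes, a sugar transporter and a ubiquitin ligase. PUB19, a plant U-box ubiquitin ligase, read 496 and 575 in mock and 5592 and 1952 with ABA. Its signal was 11.3-fold higher in replicate 1 and 3.40-fold higher in replicate 2. U-box ligases mark proteins for breakdown. At least 2-fold higher in both replicates were 0.996% of all probe sets. PUB19 was the only one of 12 measured genes of the U-box and RING list past 2-fold in both. The next of that list by p, PUB26, had changes of 0.61 and 0.34.

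SAG29, also named SWEET15, is a sugar transporter that takes its first name from leaf senescence. Its signals were 4.69 and 53.4 in mock and 2472 and 542 with ABA, the mock value of replicate 1 being under the 10th percentile of that array. SAG29 was near the floor on the mock array of replicate 1, dim on that of replicate 2 and brighter on both ABA arrays. It was under the filter threshold on every mock array, abh1 included, and passed only through its ABA arrays. Its direction was thus set by the filter. SWEET4, another of the 8 SWEET genes measured, changed by 2.49 in replicate 1 and 0.46 in replicate 2. It read 286 and 292 in mock and 1654 and 407 with ABA, its ABA arrays above its mock arrays. SWEET11, the brightest and chosen after its values were seen, read 7767 and 5177 in mock and 7611 and 4025 with ABA. SAG101, the other senescence-associated gene measured, read 124 and 183 in mock and 111 and 217 with ABA, without a shared direction.

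ALDH7B4, an aldehyde dehydrogenase that clears reactive aldehydes, read 1325 and 2025 in mock and 5967 and 5323 with ABA. ALDH7B4 was the only one of the 8 aldehyde dehydrogenases measured that passed 2-fold in both replicates. Over all probe sets, 0.996% were at least 2-fold higher in both. On average 6 of the 8 were lower, where 59.4% of all genes were. ALDH2C4 read 2040 and 1987 in mock and 869 and 2047 with ABA, lower in replicate 1 alone. CHI, annotated as a putative chitinase, an enzyme type that cuts fungal walls, read 926 and 319 in mock and 3110 and 1126 with ABA, changes of 1.74 and 1.79. TBL37, of the trichome birefringence-like family whose members acetylate wall sugars, read 333 and 277 in mock and 1002 and 699 with ABA.

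The other genes of these 15 carry only a locus code in the annotation used, so no role is given for them. AT2G41190 read 227 and 437 in mock and 5246 and 1701 with ABA. AT1G61890 read 1761 and 738 in mock and 6503 and 3289 with ABA, and AT4G22820 read 891 and 487 in mock and 3898 and 1129 with ABA. These genes were above the 10th percentile of both mock arrays and higher on both ABA arrays. AT4G02360 read 192 and 81.7 in mock and 1184 and 468 with ABA, and its changes of 2.56 and 2.38 were close to each other (limma adjusted p = 0.0577). AT5G22460 read 135 and 201 in mock and 595 and 657 with ABA. AT1G16850 read 316 and 162 in mock and 1211 and 562 with ABA. The ABA arrays of these genes stand clear of the mock arrays, and the replicates differ less than for the LEA genes. AT3G57010 had mock signals of 4.02 and 4.93, under the 10th percentile of both mock arrays, and 469 and 89.6 with ABA. Like SAG29, it was under the filter threshold on every mock array, so its direction was set by the filter. AT3G53980 read 140 and 169 in mock and 499 and 458 with ABA. Of the 15 genes, 13 had the larger change in replicate 1, the exceptions being CHI and AT1G61890.

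A further 45 genes were at least 2-fold higher in both replicates, with limma adjusted p of 0.0649 to 0.470. In 42 of them no wild-type array was under its 10th percentile, and their changes were 1.0 to 5.88 in replicate 1 and 1.01 to 2.99 in replicate 2. The other 3 were AT3G02480, AT4G39670 and AT2G23910. Of all 60 such genes, 17 carry a symbol other than the locus code, and those outside the rule for named genes were picked for their annotated role after their values were seen. MGL, methionine gamma-lyase, which breaks down methionine, read 98.3 and 40.2 in mock and 286 and 389 with ABA. It was one of the genes with the larger change in replicate 2. AT4G33150, annotated as lysine-ketoglutarate reductase and saccharopine dehydrogenase, the start of lysine breakdown, read 136 and 221 in mock and 813 and 533 with ABA. Both amino acid breakdown genes had their ABA arrays above their mock arrays. WSD1, a wax ester synthase, read 259 and 243 in mock and 1695 and 501 with ABA. DI21, named as drought-induced, read 68.1 and 48.3 in mock and 464 and 128 with ABA. It was under the filter threshold on every mock array, abh1 included, so its direction was set by the filter. RALFL32, a RALF-like peptide gene, read 507 and 218 in mock and 2176 and 530 with ABA, and its lower ABA value stood only just above its higher mock value.

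Among the genes lower with ABA, EXPA8 came first. This expansin read 4152 and 5053 in mock and 350 and 1165 with ABA. Both ABA arrays lay far below both mock arrays, by 11.9-fold in replicate 1 and 4.34-fold in replicate 2. Its change was −2.82 with an SE of 0.35 and a limma adjusted p of 0.0577. TBL45, of the same family as TBL37, read 808 and 513 in mock and 233 and 235 with ABA (limma adjusted p = 0.0747). TBL37 was thus higher and TBL45 lower with ABA, in both replicates.

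AT3G16530 read 2697 and 2201 in mock and 715 and 690 with ABA, changes of −1.90 and −1.66. AT1G20070 read 1365 and 1290 in mock and 634 and 574 with ABA. AT5G57170 read 1084 and 929 in mock and 483 and 451 with ABA. In these genes the replicates were close on both sides and the groups were well apart. AT1G76240 read 854 and 1691 in mock and 315 and 752 with ABA, and AT1G30250 read 3862 and 1999 in mock and 1882 and 851 with ABA. AT3G15570 read 654 and 1157 in mock and 105 and 561 with ABA. Here the replicates differed in level, and the direction was the same within each. P1R1 read 383 and 470 in mock and 136 and 197 with ABA. AT1G06830 read 657 and 384 in mock and 214 and 103 with ABA. AT1G32780 read 204 and 245 in mock and 94.3 and 74.9 with ABA. In all 3 the mock arrays lay above the ABA arrays. AT1G42650, AT1G60230 and AT5G54130 had changes of −1.12 to −1.92 in replicate 1 and −1.0 to −1.26 in replicate 2. AT4G15690 completes the 15, at 253 and 40.9 in mock and 106 and 4.87 with ABA, the last value under the 10th percentile of its array. The mock and ABA arrays overlapped for AT4G15690 and AT5G54130 only. AT5G55580, annotated as mTERF9 and outside the rule for named genes, was the one remaining gene 2-fold lower in both, with changes of −1.76 and −1.03. AT5G55580 and AT1G60230 were under the filter threshold on every ABA array, abh1 included. They passed only through their mock arrays, so their direction was set by the filter.

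**Figure D4:**
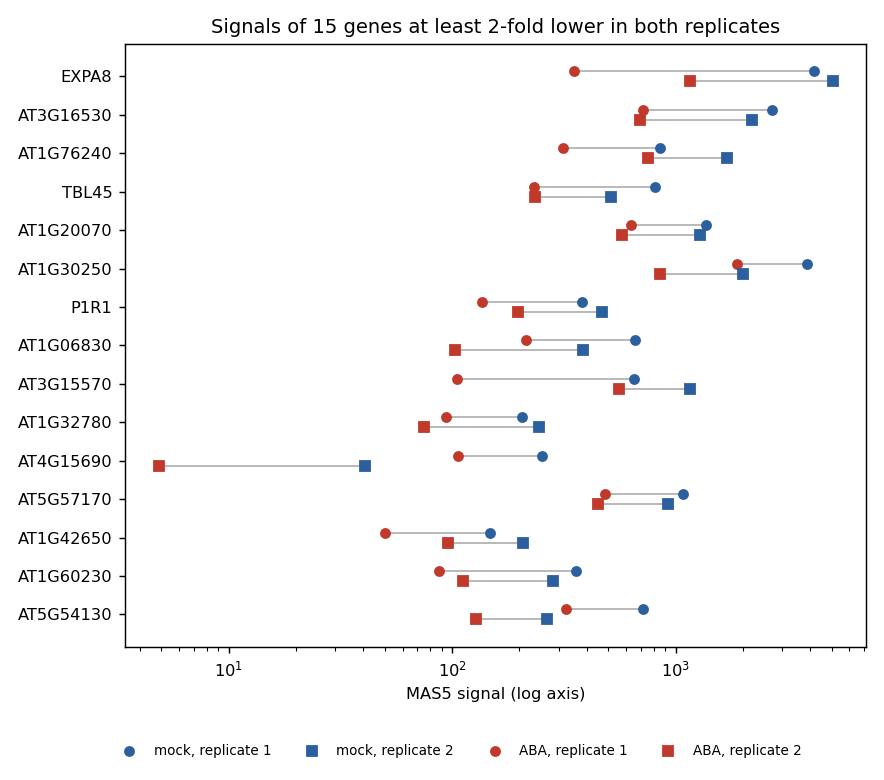
MAS5 signal (log x axis) of the 15 genes with the smallest limma p among those at least 2-fold lower with ABA in both wild-type replicates, with mock in blue, ABA in red, circles for replicate 1 and squares for replicate 2. EXPA8 shows the longest distance between mock and ABA in replicate 1.

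Wall-loosening genes went both ways. Of the 10 expansins and expansin-like genes measured, 4 were higher and 6 lower on average, near the shares of all genes, 40.6% and 59.4%. In both replicates 2 passed 2-fold higher and 1 passed 2-fold lower, where 0.996% and 0.205% of all probe sets did, and 0 were called. EXLA1 read 522 and 586 in mock and 2352 and 1363 with ABA, and EXLB1 read 464 and 383 in mock and 1253 and 785 with ABA. EXPA16 read 487 and 632 in mock and 2615 and 1188 with ABA, a change of 2.40 in replicate 1 and 0.90 in replicate 2. The ABA arrays of these 3 genes lay above their mock arrays, opposite to EXPA8. EXPA4, EXPB3, EXPA9 and EXPB1 are outside the rule for named genes and were chosen after their values were seen. EXPA4 had changes of 0.57 and 0.20. EXPB3, EXPA9 and EXPB1 were lower in both replicates, with changes between −1.17 and −0.50. The medians over the 10 genes were 0.03 and −0.15, and the median over both replicates turned from −0.06 to 0.05 with median centring. Of the cellulose synthase-like genes, which build wall polysaccharides, CSLA01 read 138 and 312 in mock and 343 and 831 with ABA. In that family 4 of the 7 measured members were lower in both replicates, where 32.5% of all genes were.

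Autophagy genes differed between the replicates. ATG8 proteins coat the membranes that enclose cell material for recycling. Of the 10 autophagy genes measured, 9 were higher on average and 6 were higher in both replicates, where 40.6% and 21.2% of all genes were, but the median change was 0.69 in replicate 1 and 0.08 in replicate 2. ATG8H read 297 and 184 in mock and 1066 and 272 with ABA, changes of 1.81 and 0.54. ATG8E read 1338 and 1290 in mock and 3302 and 1347 with ABA. APG8A, the file's name for ATG8A, read 1391 and 1133 in mock and 3375 and 1291 with ABA. The difference was large in replicate 1, and ABA replicate 2 lay within the range of the mock arrays, or close to it. None was called (0 of 10), and 0 passed 2-fold in both replicates.

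Chlorophyll synthesis genes were lower in most cases. All 7 measured genes were lower on average and 6 were lower in both replicates, with medians of −0.29 and −0.37, and 0 were called. Over all genes, 59.4% were lower on average and 32.5% lower in both replicates. PORB, which makes chlorophyllide in the light, read 8050 and 16667 in mock and 3492 and 14391 with ABA. HEME2, of the early steps shared with haem, read 3400 and 3485 in mock and 2324 and 2389 with ABA. CHLM, which methylates the magnesium-bearing ring, read 8388 and 8399 in mock and 7351 and 5799 with ABA. PORB had the largest change of the list in replicate 1, at −1.20, and overlapped between groups, while HEME2 and CHLM did not overlap. CHLI2, HEMB1 and HEMA2 are outside the rule and complete the list. CHLI2, HEMB1 and HEME1 were lower in both replicates by 0.22 to 0.66 on the log2 scale. HEMA2 was lower in replicate 1 alone. The median over both replicates was −0.44, and it stayed below 0 with median centring (−0.33) and quantile normalization (−0.48). The light-harvesting genes LHCB4.1, LHCB4.2 and LHCB4.3, whose proteins bind chlorophyll, had medians of −0.26 and 0.02, and the 4 nuclear photosystem subunit genes had medians of 0.14 and −0.02. The 66 chloroplast-encoded genes had medians of −0.05 and −0.13, with 28 lower and 12 higher in both replicates, against 32.5% and 21.2% of all genes. Their median over both replicates, −0.11, moved close to 0 with median centring, and that of the photosystem subunits turned from 0.06 to −0.04 with quantile normalization.

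**Figure D5:**
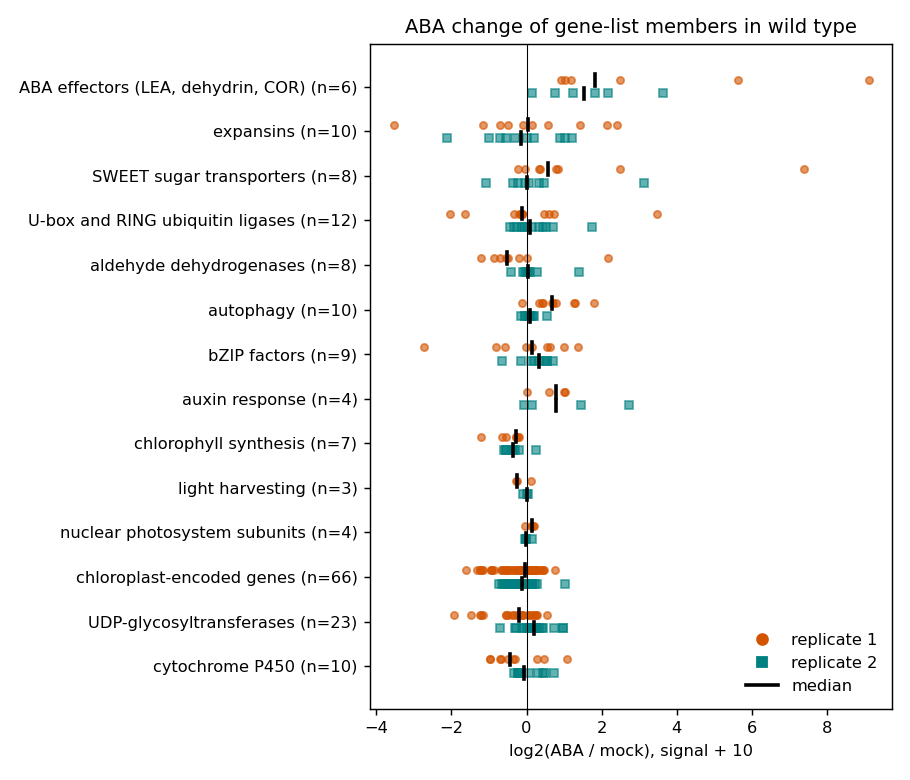
Change of each measured member of 14 gene lists, log2 of ABA over mock with 10 added to each signal (x axis), with circles for replicate 1, squares for replicate 2 and a black bar at each median. The effector list has medians of 1.83 and 1.54, and the autophagy list has 0.69 and 0.08.

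None of the regulators on the lists was called (0 of the bZIP, WRKY and auxin genes). The bZIP factors that act directly downstream of the ABA kinases are not analysed here, and of the 9 other bZIP genes measured BZIP53, a factor of seed and starvation responses, was highest, at 1159 and 1222 in mock and 3004 and 1999 with ABA. BZIP60, a factor of the unfolded protein response, read 1398 and 1057 in mock and 2790 and 1537 with ABA. BZIP28, of the same response and chosen after its values were seen, read 310 and 254 in mock and 38.3 and 323 with ABA, so it was lower in replicate 1 alone. Of 5 WRKY factors measured, 3 were higher and 1 lower in both replicates, where 21.2% and 32.5% of all genes were. WRKY6, a factor linked to senescence and defence, read 124 and 79.8 in mock and 190 and 150 with ABA. WRKY53, another senescence factor, had changes of 0.06 and 1.22. Auxin response genes included WES1, which joins auxin to amino acids, at 111 and 215 in mock and 238 and 600 with ABA. GH3.3, a relative, read 24.7 and 73.5 in mock and 59.3 and 540 with ABA. Both had the larger change in replicate 2. The linker histone gene HIS1-3, known as drought-inducible, read 493 and 551 in mock and 916 and 802 with ABA, its ABA arrays above its mock arrays.

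The guard cell markers measured were AT1G22690, entered in the marker list as GC1, and FMA, the regulator FAMA that completes guard cell formation. AT1G22690 read 1554 and 997 in mock and 868 and 431 with ABA, and FMA read 277 and 220 in mock and 227 and 207 with ABA. Both were lower in both replicates, and only AT1G22690 had all ABA values below all mock values. The trichome regulator TRY read 219 and 251 in mock and 205 and 225 with ABA. The part of cell makeup in the changes above was not tested.

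Further genes were named by the largest change in one replicate with less than 0.5 in the other. Among those higher in replicate 1 was AT5G50360, at 5.47 and 16.3 in mock and 382 and 25.4 with ABA. AT5G50360 was under the filter threshold on every mock array, abh1 included, and passed only through its ABA arrays. SWEET4 was described above, and AT1G54120 read 176 and 223 in mock and 1059 and 267 with ABA. AT3G11690 read 434 and 496 in mock and 2422 and 503 with ABA. In each of these ABA replicate 1 was far above the other 3 arrays. AT3G03170 and AT5G01300 followed with changes of 2.88 and 2.46 in replicate 1 and 0.39 and −0.03 in replicate 2. Among the lower ones, Cpn60beta3, a chloroplast chaperonin subunit that helps proteins fold, read 167 and 168 in mock and 4.74 and 235 with ABA. AT1G80750 read 366 and 234 in mock and 19.2 and 271 with ABA, and AT1G23280 read 167 and 206 in mock and 4.18 and 154 with ABA. These genes were at or near the floor on ABA replicate 1 and at their mock level, or close to it, on ABA replicate 2. AT1G26170, AT5G01950 and AT2G30890 were of the same kind, with changes of −3.32, −3.08 and −3.05 in replicate 1 and −0.08, 0.12 and −0.43 in replicate 2.

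Among genes with the large change in replicate 2, the higher ones differed through a low mock value. AT3G01820 read 397 and 65.5 in mock and 535 and 384 with ABA. AT4G33985 read 250 and 29.3 in mock and 204 and 172 with ABA, and AT3G11210 read 140 and 23.7 in mock and 176 and 140 with ABA. In all 3, mock replicate 2 was the array that stood apart. The lower genes differed through a low ABA value. AT5G48490 read 2285 and 1348 in mock and 2668 and 425 with ABA. AT4G15680 read 154 and 118 in mock and 194 and 28.3 with ABA, and AT4G28900 read 101 and 193 in mock and 146 and 66.0 with ABA. In these, ABA replicate 2 was the lowest of the 4 arrays.

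The abh1 arrays, which share no array with the wild-type comparison, gave a second reading of the same probe sets, although arrays of the same number deviated together across groups, with correlations of 0.39 to 0.71. Of the 394 probe sets 2-fold higher in wild-type replicate 1 and not in replicate 2, 335 (85.0%) were higher with ABA in both abh1 replicates. Of the 244 that were 2-fold higher in wild-type replicate 2 and not in replicate 1, 72 (29.5%) were higher in both abh1 replicates. Over all probe sets the share was 28.2%. Those of wild-type replicate 1 were thus mostly higher in abh1 as well, with medians of 0.77 and 0.72, while those of wild-type replicate 2 had medians of −0.14 and 0.13. For lower signals, 1194 of 1393 probe sets of replicate 1 alone (85.7%) were lower in both abh1 replicates, and so were 32 of the 67 of replicate 2 alone (47.8%), over a background of 37.7%. After median centring the shares were 89.0% and 35.5% for higher signals over 42.0%, and 80.8% and 41.0% for lower signals over 24.0%.

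The probe sets shared by both wild-type replicates mostly went the same way in abh1. Of the 136 higher ones, 123 were higher in both abh1 replicates and 68 were at least 2-fold higher in both, where 1.27% of all probe sets were. Of the 28 lower ones, 26 were lower in both abh1 replicates and 10 were at least 2-fold lower in both, where 1.12% of all were. Counted from abh1, of the 174 probe sets 2-fold higher in both of its replicates, 88.5% were 2-fold higher in wild-type replicate 1, 40.2% in replicate 2 and 39.1% in both. Of the 153 that were 2-fold lower in both abh1 replicates, 76.5% were 2-fold lower in wild-type replicate 1, 7.84% in replicate 2 and 6.54% in both. Of the 15 named higher genes, 14 were higher in both abh1 replicates, 11 of them at least 2-fold. The exception was AT3G53980, with abh1 changes of −0.09 and −0.39. Its abh1 signals were 796 and 1140 in mock and 749 and 865 with ABA, each above all of its wild-type signals. ZW9 had abh1 changes of 3.38 and 3.98, and LTI30 had 2.95 and 2.60. EXPA8 had abh1 changes of −1.85 and −2.06.

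The difference between the ABA response of wild type and that of abh1 was tested in the same limma fit. No probe set passed (0 called), the smallest adjusted p was 1, and 249 had an unadjusted p under 0.05, fewer than the 682 expected by chance. The genes with the smallest unadjusted p were AT3G53980, AT1G60590, LUL1 and AT1G57630. LUL1, a LOG2-like ubiquitin ligase, read 535 and 526 in mock and 465 and 499 with ABA in wild type, and its abh1 changes were 0.97 and 1.19.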

How the data were processed

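The deposited values are MAS5 signal intensities on a linear scale, made by the authors with Affymetrix software named MAS5, per the submitters' processing notes (software settings: not given in the sources used here). Trimmed means of 500.04 to 500.05 on all arrays showed that the intensities were already scaled, and they were not normalised again. After the 64 control probe sets were left out, 10 was added, log2 taken, and probe sets at or above the 40th percentile of mean signal kept. A gene was represented by its brightest probe set with 1 annotated gene. Of 22746 probe sets, 13513 had 1 gene, 503 several, and 8730 were not listed. Gene names came from the platform annotation and the RefSeq table of TAIR10.1, and no sequence was used.

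limma 3.58.1 in R 4.3.3 was fitted to 4 group means with the replicate number as a block (3 residual degrees of freedom) and an intensity trend, two-sided, with Benjamini-Hochberg adjustment, and was tested on simulated data. The pairing rests on the labels' numbers: after group means were removed, arrays with the same number correlated at 0.394 to 0.715 in all 6 pairs of groups. The number of arrays limits the precision. Members, lists and tests were chosen with earlier results of these data known. Genes named are those called, the 15 with the smallest p each way past 2-fold in both replicates, those with the largest change in 1 replicate alone, the 4 with the smallest p for the difference from abh1, and up to 4 per list by p; other list members and genes, so marked in the text, were chosen after their values were seen, and measured cell type markers are given whole. From the lists, 7 genes whose symbols matched a family name by chance were left out.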

Additional observations from a re-analysis of the deposited data

Results flagged for a closer look

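The genes screened here were the 30 named for a change in both replicates and the other 109 named genes. For 12 of them the ABA response had opposite directions in wild type and abh1 and an unadjusted p under 0.05 in the limma interaction term. Over all probe sets the limma adjusted p of each was 1, so none passes correction, and the differences below (wild type minus abh1, log2) are values to look at again. Both wild-type replicates on one side of 0 and both abh1 replicates on the other was the rule by which the genes were picked. Their opposite directions are thus not a result. Some changes were close to 0, such as −0.08 for LUL1 in wild-type replicate 2 and 0.03 for rpoC1 in abh1 replicate 2. Over all probe sets 249 had an unadjusted limma p under 0.05 for the difference, where 682 would be expected by chance. How many of all probe sets meet the whole rule was not counted.

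Among the genes whose ABA change, not signal level, was higher in wild type, AT3G53980 differed by 1.81 (SE 0.32). Its changes were 1.76 and 1.39 in wild type and −0.09 and −0.39 in abh1. GH3.3, an enzyme that joins auxin to amino acids, differed by 3.33 (SE 1.05). AT1G57630 differed by 1.67 (SE 0.40), WRKY6 by 1.20 (SE 0.39) and PRX52, a peroxidase, by 1.05 (SE 0.44).

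Among the genes whose ABA change was lower in wild type, AT1G60590 differed by −1.83 (SE 0.42). Its changes were −0.89 and −0.80 in wild type and 0.71 and 1.27 in abh1. LUL1 differed by −1.22 (SE 0.28), BZIP61 by −1.34 (SE 0.46) and AGL24, a MADS-box flowering regulator, by −1.13 (SE 0.41). The chloroplast-encoded genes atpH, rps2 and rpoC1 differed by −1.49 (SE 0.49), −1.29 (SE 0.41) and −0.82 (SE 0.34). Over the 66 chloroplast-encoded genes the median changes were −0.05 and −0.13 in wild type and 0.94 and 0.25 in abh1.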

How the results depend on the processing

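The number of probe sets called for the ABA effect in wild type was 1, and it was also 1 with an offset of 1 or 32 and with no filter. It was 50 with the 60th percentile filter, 75 with quantile normalization, 97 with median centring, 159 with the wild-type arrays alone and 0 with no intensity trend. Without the replicate block, on which the pairing rests, it was 0, with 574 at an unadjusted p under 0.05 in limma. Leaving out 1 array at a time gave 0 to 2128: 2128 with the wild-type ABA array of replicate 2 left out, 5 with that of replicate 1 left out, 0 without either mock array of wild type or abh1, and 1 without either abh1 ABA array. The lone array of a group is then assumed to vary like the others. The difference between wild type and abh1 had 0 calls in the main fit and in each alternative. The probe sets 2-fold in both replicates, 164 in all, were 420 with no filter (275 higher, 145 lower), 591 at 1.5-fold (369 and 222) and 51 at 3-fold (46 and 5).

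The 30 genes named for a change in both replicates kept their direction in each alternative run. Of these, 17 passed the threshold with quantile normalization, 19 with median centring, 21 with the wild-type arrays alone and 0 without the replicate block. Of the other 109 named genes, 28 changed direction in at least 1 alternative. Of 336 list medians recomputed over 21 lists, 44 moved by more than the spread between replicates. Dim probe sets, under the 10th percentile on an array, give no usable fold.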
